A study of Mus musculus with 25 samples.

Results

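The Hoxa, Hoxc and Hoxd clusters hold 30 genes in 3 stretches of the mouse genome: 11 in Hoxa (Hoxa2, Hoxa3, Hoxa4, Hoxa5, Hoxa6, Hoxa7, Hoxa9, Hoxa10, Hoxa11, Hoxa13 and Evx1), 9 in Hoxc (Hoxc4, Hoxc5, Hoxc6, Hoxc8, Hoxc9, Hoxc10, Hoxc11, Hoxc12 and Hoxc13) and 10 in Hoxd (Hoxd1, Hoxd3, Hoxd4, Hoxd8, Hoxd9, Hoxd10, Hoxd11, Hoxd12, Hoxd13 and Evx2). They were read here as DNA methylation at every CpG of 3 windows on the mm9 build, chr6:52100001-52270000, chr15:102745001-102870000 and chr2:74485001-74610000. The windows held 3071 CpGs with at least 5 reads in a library (1221 in Hoxa, 713 in Hoxc and 1137 in Hoxd), of 1587545 in all. The windows were set by position, not by methylation.

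Hox genes encode homeodomain transcription factors that give cells their position along the head-to-tail axis, and within a cluster they lie in the order in which they act. Polycomb complexes hold silent Hox genes in check on chromatin that mostly lacks DNA methylation, while trithorax proteins such as Kmt2a (MLL1) keep active ones on. In blood, many Hoxa and Hoxb genes are active in stem and progenitor cells and are switched off as cells differentiate, and overexpressed Hoxa9 and Hoxa10 drive leukaemia. Hoxc and Hoxd genes are known mainly for the trunk, limbs and genital tract.

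Methylation was measured by reduced representation bisulfite sequencing (RRBS), which sequences enzyme-cut, CpG-rich fragments after unmethylated cytosines have been converted, in haematopoietic stem cells (HSCs) of C57Bl/6 mice. The groups of ontogeny and age were fetal liver at e14.5 (fetal, n = 2) and bone marrow at 3.5 months (young, n = 2) and 25 months (old, n = 2). The bone marrow groups of the drug series were aged 3.5 months plus 6 months and had received 0 (n = 3), 2 (n = 3) or 4 (n = 2) doses of 5-fluorouracil (5-FU), a drug that kills cycling cells. The transplanted groups, also from bone marrow, came from 10 (n = 3), 50 (n = 1) or 500 (n = 1) young HSCs and from 10 (n = 2), 50 (n = 1) or 500 (n = 3) old HSCs; a group of 1 library has no replicate error. The labels give no donor or host marker, no time after transplantation, no sorting markers, no sex and no account of which replicates were separate animals. What the p-values measure is thus the spread among these libraries, which may be technical. The design asked how methylation of HSCs differs over ontogeny and after forced rounds of division.

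Reads summed over the CpGs of a library came to 22835325 to 105187091, a read being counted at each CpG it covers. The second library with 4 doses of 5-FU covered the fewest Hox CpGs. Over the Hoxa CpGs with at least 5 reads in all 25 libraries, the lowest median of a library was 20 reads and the highest 98.0. At CpGs of the autosomes that were at 2% or less in the summed reads of the other 24 libraries, a library read between 0.248% and 1.61%. Fetal HSCs read 0.327% ± 0.112 (SD, n = 2) at this unmethylated DNA, young HSCs 0.967% ± 0.118 (n = 2) and old HSCs 1.45% ± 0.214 (n = 2). It was 0.849% ± 0.206 (n = 3) with 0 doses of 5-FU and lay between 0.271% and 0.513% as a mean of each other group. It thus moved with fetal, young and old in the same order as the Hox levels below, and its part in differences of 1 or 2 points was not tested.

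A start site was given a position in the files' build only where the spacing of CpGs in its RefSeq promoter sequence matched the CpG positions listed by the authors at a single place. This placed 12 of the 30 genes: Hoxa5, Hoxa6, Hoxa11, Hoxa13, Hoxd1, Hoxd3, Hoxd4, Hoxd9, Hoxd10, Hoxd11, Hoxd12 and Hoxd13. It also placed 4 non-coding genes of the windows. Of these, 5730596B20Rik was placed by 4 matched CpGs, the fewest allowed, as was Hoxd4. Of the 7 promoters placed in Hoxa, 5 kept their RefSeq distances to each other, and in Hoxd all 10 did. The rest in Hoxa, not identified here, were kept as placed, so positions and distances given by a Hoxa start carry this limit. No Hoxc gene was placed, so Hoxc is described by position alone. Values are percent of reads methylated, per CpG or summed over the CpGs of a tile of 1000 bases, and differences are in percentage points. A tile was called, and is said to have risen or fallen, where its adjusted p was below 0.05 and its group means lay 10 points or more apart.

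The promoters below belong to the 3 placed Hox genes whose start-site tile or its neighbour was called between fetal and young, young and old, or after transplantation of 10 cells. They are RefSeq sequences of GRCm38.p6, 250 bases before to 50 bases after the start. Capitals mark the CpGs that the matching found in the authors' files, and all of them lie in the upstream part. Hoxa5 was placed at chr6:52154537-52154836, Hoxa6 at chr6:52158622-52158921 and Hoxa11 at chr6:52195760-52196059, all on the minus strand of mm9.
Hoxa5: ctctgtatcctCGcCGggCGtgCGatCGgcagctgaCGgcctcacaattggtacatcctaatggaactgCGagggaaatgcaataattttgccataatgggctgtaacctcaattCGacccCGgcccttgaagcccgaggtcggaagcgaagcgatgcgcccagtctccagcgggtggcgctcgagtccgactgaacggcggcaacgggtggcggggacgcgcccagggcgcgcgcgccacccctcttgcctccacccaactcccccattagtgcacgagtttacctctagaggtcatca
Hoxa6: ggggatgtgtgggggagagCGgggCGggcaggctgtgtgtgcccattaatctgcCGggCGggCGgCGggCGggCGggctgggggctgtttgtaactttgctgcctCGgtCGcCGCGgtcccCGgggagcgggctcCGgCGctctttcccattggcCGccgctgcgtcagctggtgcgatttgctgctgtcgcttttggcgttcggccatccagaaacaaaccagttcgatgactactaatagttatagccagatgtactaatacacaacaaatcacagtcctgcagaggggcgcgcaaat
Hoxa11: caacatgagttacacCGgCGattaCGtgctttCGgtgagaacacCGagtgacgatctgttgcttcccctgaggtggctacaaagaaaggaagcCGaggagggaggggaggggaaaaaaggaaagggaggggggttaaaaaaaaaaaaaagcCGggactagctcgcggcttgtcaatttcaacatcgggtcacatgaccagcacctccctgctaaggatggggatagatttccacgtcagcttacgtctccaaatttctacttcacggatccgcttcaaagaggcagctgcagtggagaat

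As clusters, all 3 were lowly methylated in every group and lowest in fetal HSCs. Over the 454 CpGs of Hoxa with at least 5 reads in all 25 libraries, the mean was 4.47% and 4.67% in the fetal libraries, 7.76% and 8.91% in the young and 9.80% and 10.3% in the old. Hoxc, over 294 CpGs, read 2.91% and 2.01% in fetal, 5.28% and 5.41% in young and 8.92% and 9.39% in old HSCs. Hoxd, over 475 CpGs, read 3.11% and 3.12%, then 5.30% and 5.40%, then 9.48% and 9.21%. In each cluster the young libraries lay above both fetal ones and the old libraries above both young ones. The step from fetal to young was 3.76 points ± 0.580 (SE) in Hoxa, 2.88 ± 0.454 in Hoxc and 2.24 ± 0.0504 in Hoxd, and that from young to old 1.73 ± 0.628, 3.81 ± 0.242 and 3.99 ± 0.145. The level of unmethylated DNA differed by 0.640 ± 0.115 and 0.487 ± 0.173 points over the same steps. With it taken off each library, the steps were 3.12, 2.24 and 1.60 points from fetal to young and 1.24, 3.32 and 3.50 points from young to old. Averaged over tiles, the step from young to old in Hoxa was 1.75 points, and it turned to -1.72 with the library offset described below removed. All autosomal CpGs averaged 40.2%, 39.9% and 41.9% in the same order.

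**Figure D1:**
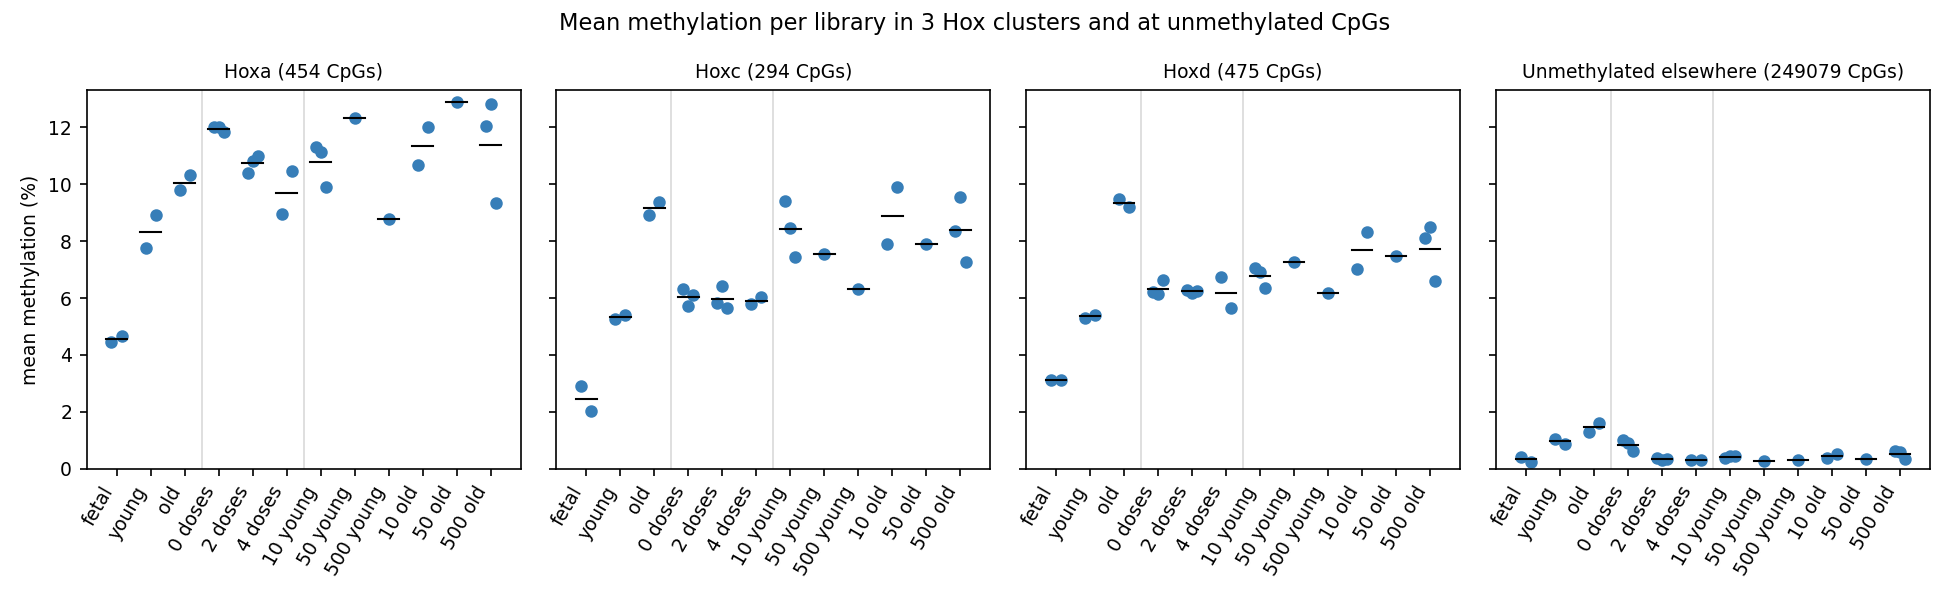
Mean methylation (%) of each library (points) in the Hoxa, Hoxc and Hoxd windows and at unmethylated CpGs elsewhere on the autosomes, by group, with the group mean as a line; "10 young" to "500 old" are the transplanted groups. Hoxa is highest with 0 doses of 5-FU and after several transplants, the group means of Hoxc and Hoxd are highest in old HSCs, and fetal HSCs are lowest in all 3 clusters.

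Among all 12 groups Hoxa ran from 4.57% in fetal HSCs to 12.9% in the single library from 50 old cells. In Hoxa the mice aged 3.5 months plus 6 months without drug read 11.95% ± 0.0894 (n = 3), above the 10.1% ± 0.369 (n = 2) of old HSCs, and the 2 groups did not overlap. Hoxc and Hoxd had the other order: 6.05% ± 0.295 and 6.33% ± 0.257 without drug, against 9.15% ± 0.330 and 9.34% ± 0.192 in old HSCs. After transplantation of 10 young cells the clusters read 10.8% ± 0.781, 8.44% ± 0.998 and 6.78% ± 0.378 (n = 3). After 10 old cells they read 11.4% ± 0.945, 8.90% ± 1.43 and 7.68% ± 0.913 (n = 2). For Hoxd the libraries from 10 old cells thus lay below both old libraries, while those from 10 young cells lay above both young ones. Averaged over tiles, the change with 10 young cells was 0.927 points, and it turned to -2.78 with the library offset removed.

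Most CpGs of the clusters read under 5% in fetal and young HSCs, but fewer than 50% of those in Hoxc and Hoxd did so in old HSCs. In fetal HSCs 81.5% of the Hoxa CpGs, 86.7% of those in Hoxc and 87.8% of those in Hoxd read under 5%. In old HSCs the shares were 63.2%, 47.6% and 48.0%. Few CpGs had high levels: 24 of 454 Hoxa CpGs reached 50% in young HSCs, against 0 of 294 in Hoxc and 8 of 475 in Hoxd. Without drug at the later age 47 Hoxa CpGs reached 50%.

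From fetal to young HSCs, methylation rose in 12 of the 146 Hox tiles tested and fell in 0. Of the 12, 10 lay in Hoxa, 1 in Hoxc and 1 in Hoxd. Of all 100896 tiles tested, 2.04% rose and 4.03% fell. The median difference was 1.80 points over the Hox tiles and 0.176 points over all tiles. Every young library lay above every fetal one in 101 Hox tiles (69.2%), against 29.1% of all tiles. Among tiles under 20% in old HSCs, which this comparison does not use, that share was 68.0% of 122 Hox tiles and 58.7% of all 26364. None of those 122 tiles was called.

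The Hoxa tiles that rose lay at the end of the cluster that holds Hoxa2, Hoxa3, Hoxa4 and Hoxa5. Of the 19 tiles from the start of the window to the tile beyond the Hoxa6 start, 9 rose, with a median difference of 11.6 points. Of the 38 tiles beyond, towards Hoxa13 and Evx1, 1 rose, with a median of 0.947 points. This boundary was drawn after the values were seen.

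The largest rise in Hoxa, at chr6:52120001-52121000, lay 6.65 kb upstream of 5730596B20Rik, a non-coding gene of the cluster. Its libraries read 45.0% and 43.3% in fetal and 84.1% and 87.8% in young HSCs, a difference of 41.8 points ± 2.03 (adjusted p = 2.77e-06). At chr6:52113001-52114000 the level was 8.90% and 13.7% in fetal and 56.4% and 42.0% in young HSCs (37.9 points ± 7.62, adjusted p = 2.27e-05). At chr6:52135001-52136000, 8.35 kb downstream of the same start, it went from 42.4% and 49.7% to 73.8% and 76.0% (28.8 points ± 3.78, adjusted p = 0.000461). Tiles were named only if called without overlap of the groups, so the groups lay apart in each of these by selection. The tile at the start of 5730596B20Rik rose by 21.5 points ± 12.3 (adjusted p = 0.0147), with young libraries at 49.5% and 25.9%.

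Hoxa5, a Hox factor of the neck and lung whose promoter is often methylated in leukaemia, was the 1 placed Hox gene of 12 whose start-site tile was called between fetal and young HSCs. The start-site tiles of Hoxa6, Hoxa11, Hoxa13 and the 8 placed Hoxd genes were not called. Over the 45 CpGs of that tile, chr6:52154001-52155000, the fetal libraries read 5.74% and 6.53% and the young 18.4% and 24.4% (15.3 points ± 3.01, adjusted p = 0.000829). The tile downstream of it, chr6:52153001-52154000, read 9.29% and 6.16% in fetal and 25.7% and 29.3% in young HSCs (19.8 points ± 2.37, adjusted p = 0.000648). Within the tile, the 8 covered CpGs of the printed promoter carried higher levels than the tile as a whole. They read 6.20% and 4.79% in fetal, 35.0% and 44.1% in young and 42.4% and 53.5% in old HSCs. Old and young libraries overlapped there. The CpG 213 bases before the Hoxa5 start went from 8.74% to 61.8%, and the one 235 bases before it from 2.34% to 10.4%, so neighbours in the same promoter differed widely.

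**Figure D2:**
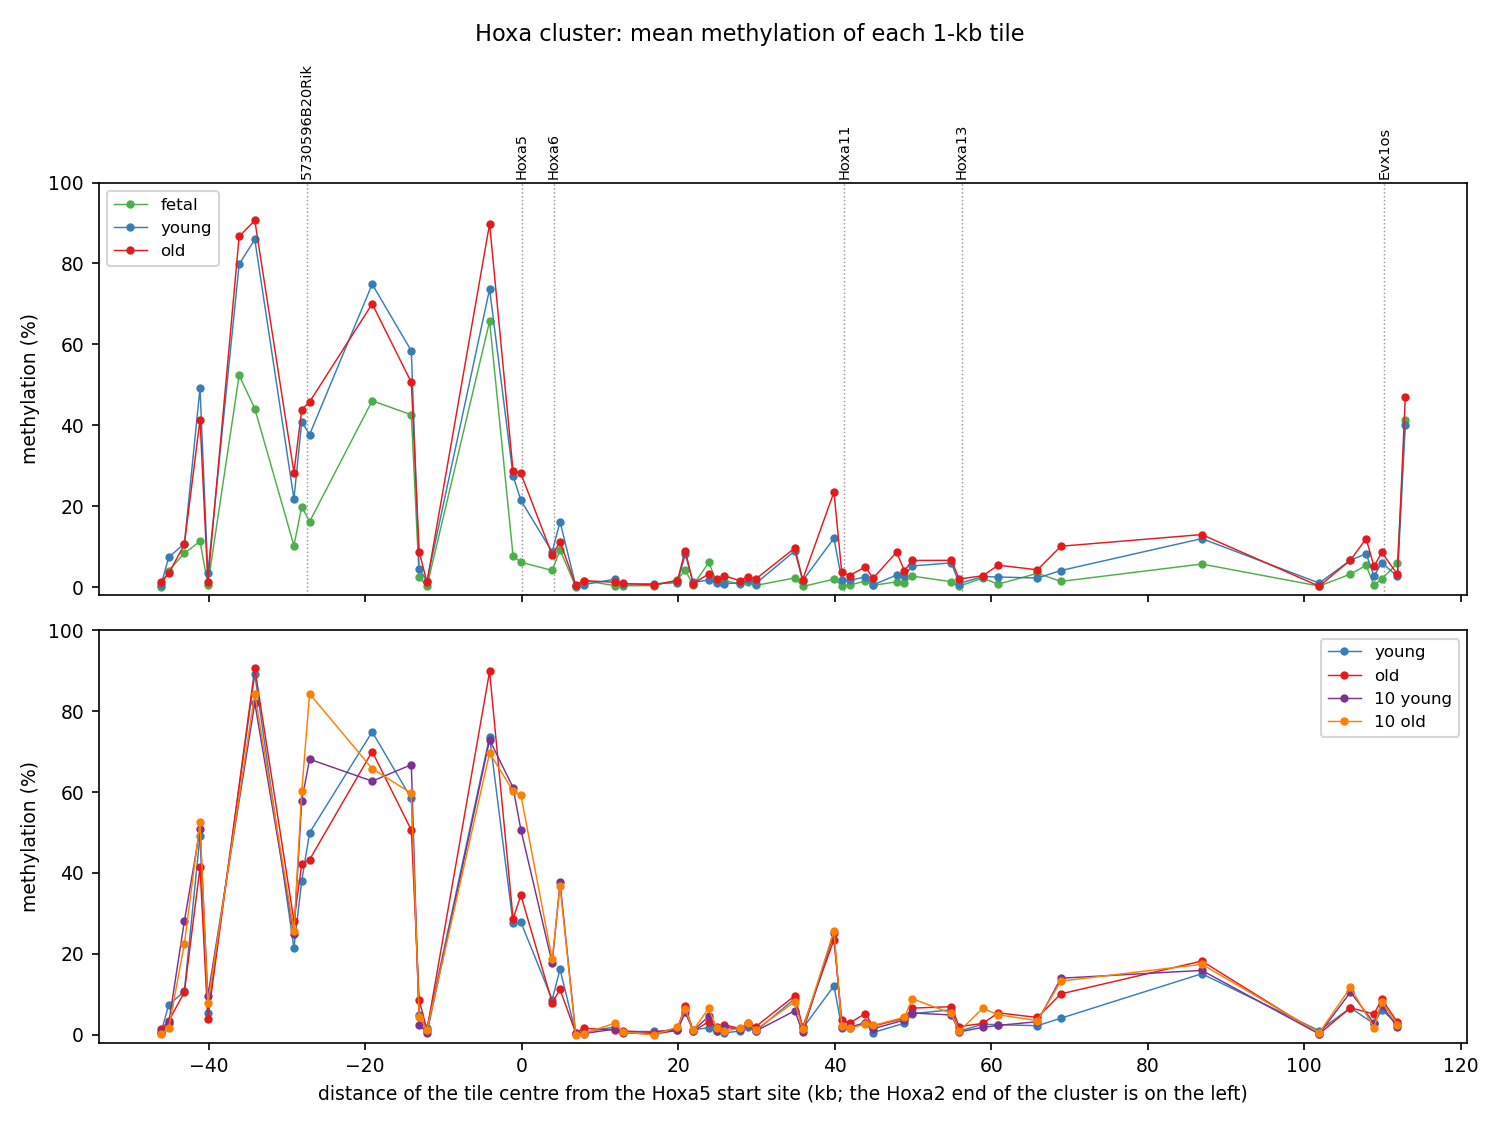
Mean methylation (%) of each 1-kb tile of the Hoxa window against its distance (kb) from the Hoxa5 start site; points are group means of 2 libraries (3 for 10 young), the upper panel shows fetal, young and old HSCs and the lower one young and old HSCs with those from 10 transplanted cells. High levels and wide differences lie mostly up to the tile beyond Hoxa6; from there to Hoxa13 the tiles stay under 10% apart from the one beside Hoxa11, and the last tile of the window in the upper panel is high in all 3 groups.

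The promoters of Hoxa6, Hoxa11 and Hoxa13 were low in most of their covered CpGs. The 12 covered CpGs of the Hoxa6 promoter read 1.497% and 0.901% in fetal, 7.12% and 0.508% in young and 2.65% and 3.49% in old HSCs, so the groups overlapped. One of its CpGs, 180 bases before the start, averaged 30.8% in young and 8.33% in old HSCs. The 5 CpGs of the Hoxa11 promoter covered in all 6 of these libraries averaged 0.126% in fetal, 2.68% in young and 3.16% in old ones, and the young and old libraries overlapped. The CpG 98 bases before the Hoxa11 start, which had no fetal value, read 44.5% in young and 40.8% in old HSCs. The promoter of Hoxa13, the last Hox gene of the cluster, averaged 0.134%, 0.643% and 0.981% over 13 such CpGs. Over the 168 CpGs between the starts of Hoxa6 and Hoxa11, where Hoxa7, Hoxa9 and Hoxa10 lie in the order of the genes, fetal HSCs averaged 1.21% ± 0.153, young HSCs 1.77% ± 0.0272 and old HSCs 2.66% ± 0.0431. Across the other groups this stretch lay between 1.51% and 3.39%. One tile near Hoxa11 differed: chr6:52194001-52195000, upstream of the antisense gene Hoxa11os, rose from 2.17% and 1.72% in fetal to 12.8% and 11.3% in young HSCs (10.1 points ± 0.772, adjusted p = 0.0036).

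**Figure D3:**
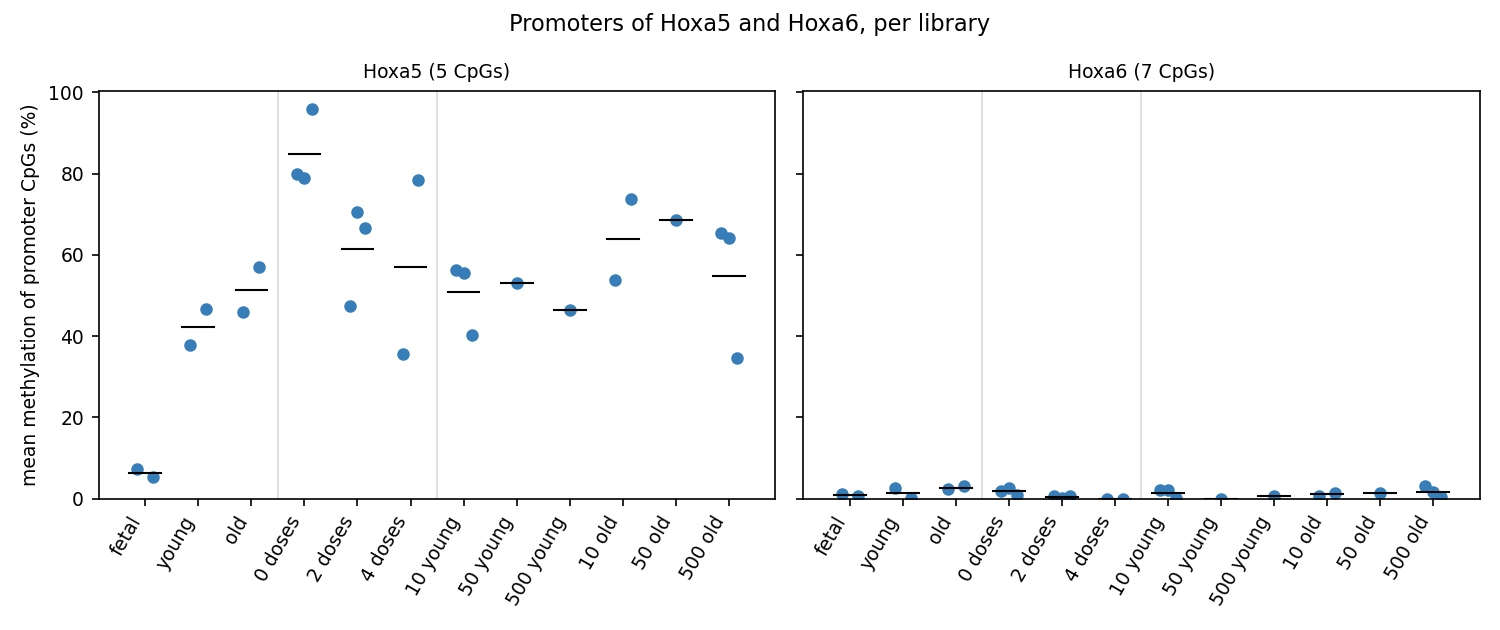
Mean methylation (%) of the promoter CpGs of Hoxa5 (5) and Hoxa6 (7) covered in all 25 libraries, in each library (points) with the group mean (line), by group. The Hoxa5 promoter reads 7.40% or less in fetal HSCs and 34.7% or more in every other library, while the Hoxa6 promoter reads 3.10% or less in all of them.

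In Hoxc the single called tile between fetal and young HSCs was chr15:102846001-102847000. It read 5.00% and 4.76% in fetal and 21.7% and 21.5% in young HSCs (16.7 points ± 0.143, adjusted p = 0.00462), over 3 CpGs. In Hoxd it was chr2:74566001-74567000, 6.47 kb downstream of the start of Hoxd4, a gene of the hindbrain and vertebrae. The fetal libraries read 39.8% and 36.9% and the young 54.3% and 61.7% (19.7 points ± 3.97, adjusted p = 0.00731). Most other tiles of both clusters had small differences in 1 direction: 41 of 44 Hoxc tiles and 40 of 45 Hoxd tiles had the higher mean in young HSCs, with medians of 1.90 and 1.66 points. These shares were 93.2% and 88.9%, against 52.3% of all tiles. Among tiles under 20% in old HSCs the mean was higher in 89.3% of 122 Hox tiles and in 79.2% of all 26364. Start-site tiles of the 8 placed Hoxd genes had differences from -1.26 points at Hoxd4 to 6.67 points at Hoxd10. None was called, although Hoxd10, a posterior gene of limb and spinal cord, passed the adjusted p (0.027) below the 10-point limit.

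Without the first fetal library 7 Hox tiles were called between fetal and young HSCs. With a limma test on the percentages 5 were called, and in a fit of all 25 libraries, restricted to CpGs covered in all of them, 1.

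**Figure D4:**
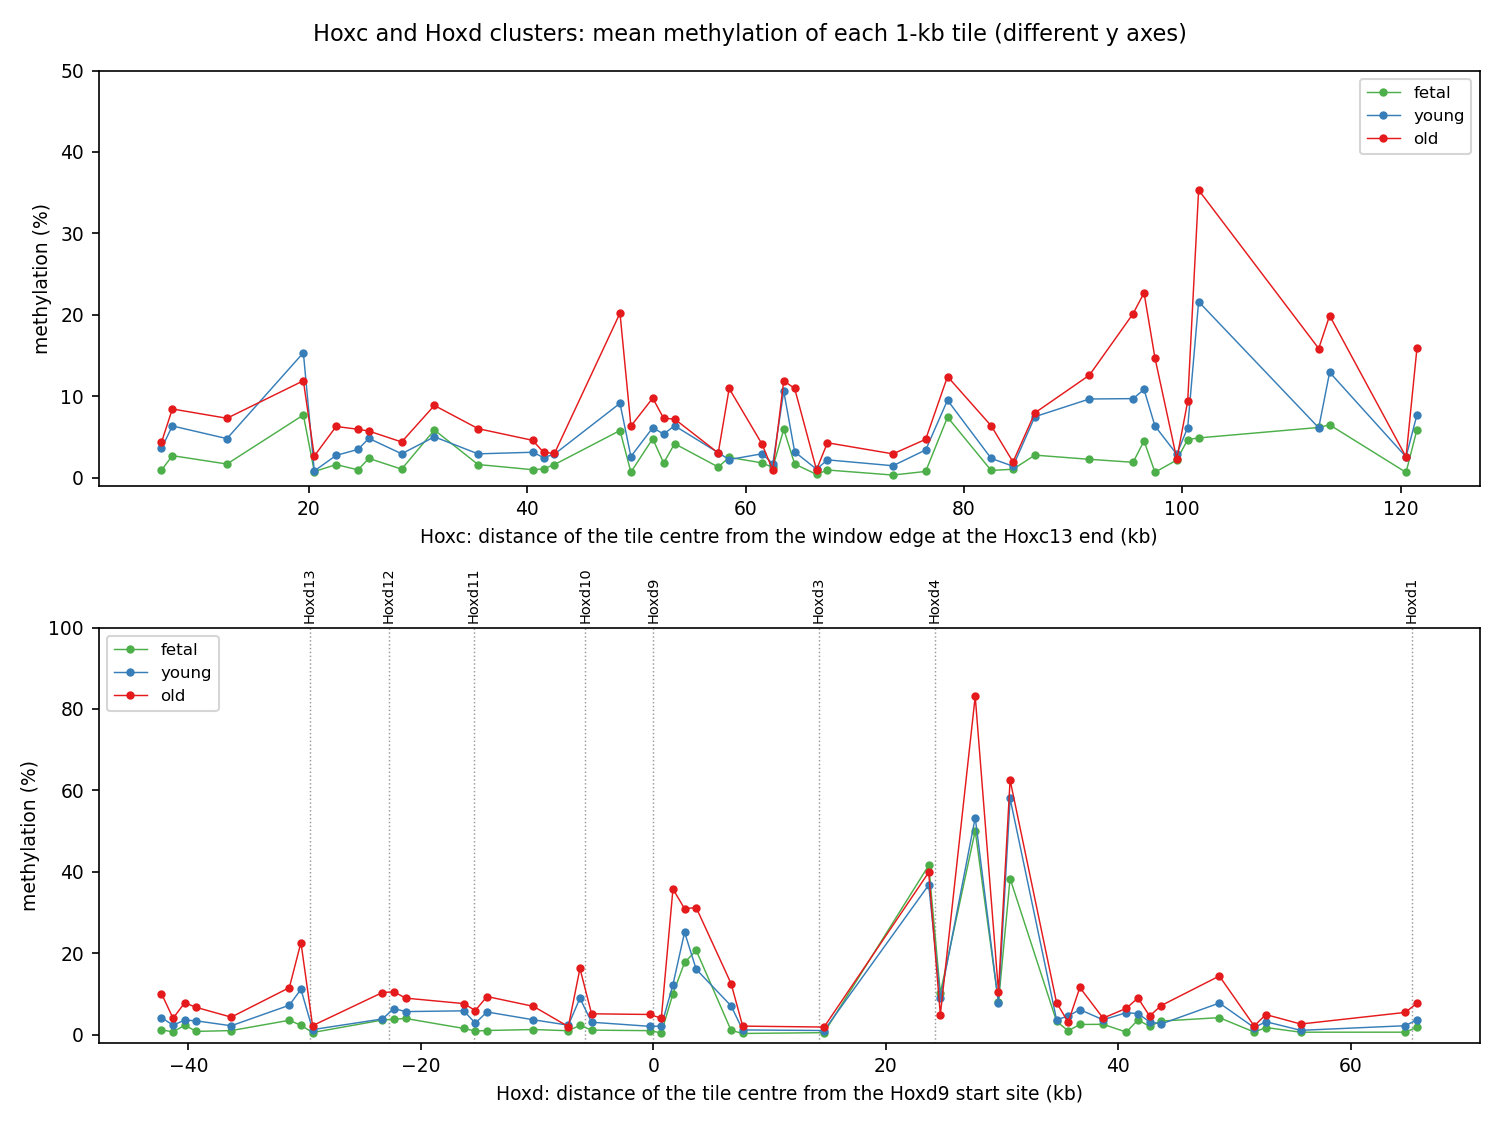
Mean methylation (%) of each 1-kb tile of Hoxc, by distance (kb) from the window edge at the Hoxc13 end, and of Hoxd, by distance from the Hoxd9 start site, in fetal, young and old HSCs (2 libraries each); the 2 panels have different y axes. Old HSCs are highest in most tiles, and the widest gap between old and young HSCs in Hoxd is at the tile of 29.8 points downstream of Hoxd4.

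Between young and old HSCs few tiles were called in any of the clusters. Methylation rose in 7 of 146 tiles (2 in Hoxa, 2 in Hoxc and 3 in Hoxd) and fell in 0, while 3.66% of all tiles rose and 0.233% fell. The medians were 1.00 point in Hoxa, 2.09 in Hoxc and 3.30 in Hoxd, against 1.54 over all tiles. Every old library lay above every young one in 23 of 57 Hoxa, 27 of 44 Hoxc and 33 of 45 Hoxd tiles, and in 43.0% of all tiles. The share in Hoxa was thus near that of the genome. Among tiles under 20% in fetal HSCs the share was 58.1% of 136 Hox tiles and 44.4% of all 26786.

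Of the 3 Hoxd tiles that rose, 2 follow the start of Hoxd9, a gene of the trunk and limbs. At chr2:74537001-74538000, 1.68 kb downstream of it, the young libraries read 9.98% and 14.7% and the old 26.9% and 44.7% (23.5 points ± 9.19, adjusted p = 0.00184). At chr2:74539001-74540000 they read 14.9% and 17.2%, and 35.9% and 26.5% (15.1 points ± 4.82, adjusted p = 0.0487). The third, chr2:74563001-74564000, downstream of Hoxd4, went from 51.5% and 55.2% to 87.9% and 78.3% (29.8 points ± 5.14, adjusted p = 0.00495). In all 3 tiles the old libraries lay above both young ones, as their naming required. None of the 8 placed Hoxd start-site tiles was called, and between the starts of Hoxd11 and Hoxd10, genes that pattern the limb, 72 CpGs averaged 1.17% ± 0.0805 before birth, 4.30% ± 0.236 in young HSCs and 9.12% ± 0.226 in old ones.

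The 2 Hoxc tiles that rose with age were chr15:102841001-102842000, from 10.7% and 10.97% to 21.4% and 24.03% (11.9 points ± 1.33, adjusted p = 0.0357), and chr15:102793001-102794000, from 10.9% and 7.40% to 17.6% and 22.8% (11.1 points ± 3.14, adjusted p = 0.0431). The first has neighbours with the same order of groups: chr15:102840001-102841000 averaged 1.89%, 9.71% and 20.1% from fetal to young to old, and chr15:102842001-102843000 averaged 0.748%, 6.17% and 14.49%. In Hoxa the tiles were chr6:52150001-52151000, 4.09 kb downstream of the Hoxa5 start, from 66.8% and 80.5% to 89.7% and 89.9% (16.1 points ± 6.86, adjusted p = 0.0223), and the tile beside Hoxa11os, from 12.8% and 11.3% to 17.4% and 29.6% (11.4 points ± 6.13, adjusted p = 0.0404). The SE of the latter was over 50% of the difference.

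None of the 7 was called when each library was shifted to the same mean at 28 CpG-rich tiles of intermediate level, where old libraries were themselves highest; the tile-mean steps from young to old were then -1.72 points in Hoxa, 0.474 in Hoxc and 1.03 in Hoxd. Without the first young library 0 were called, without the second 4, and without either old library 1.

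**Figure D5:**
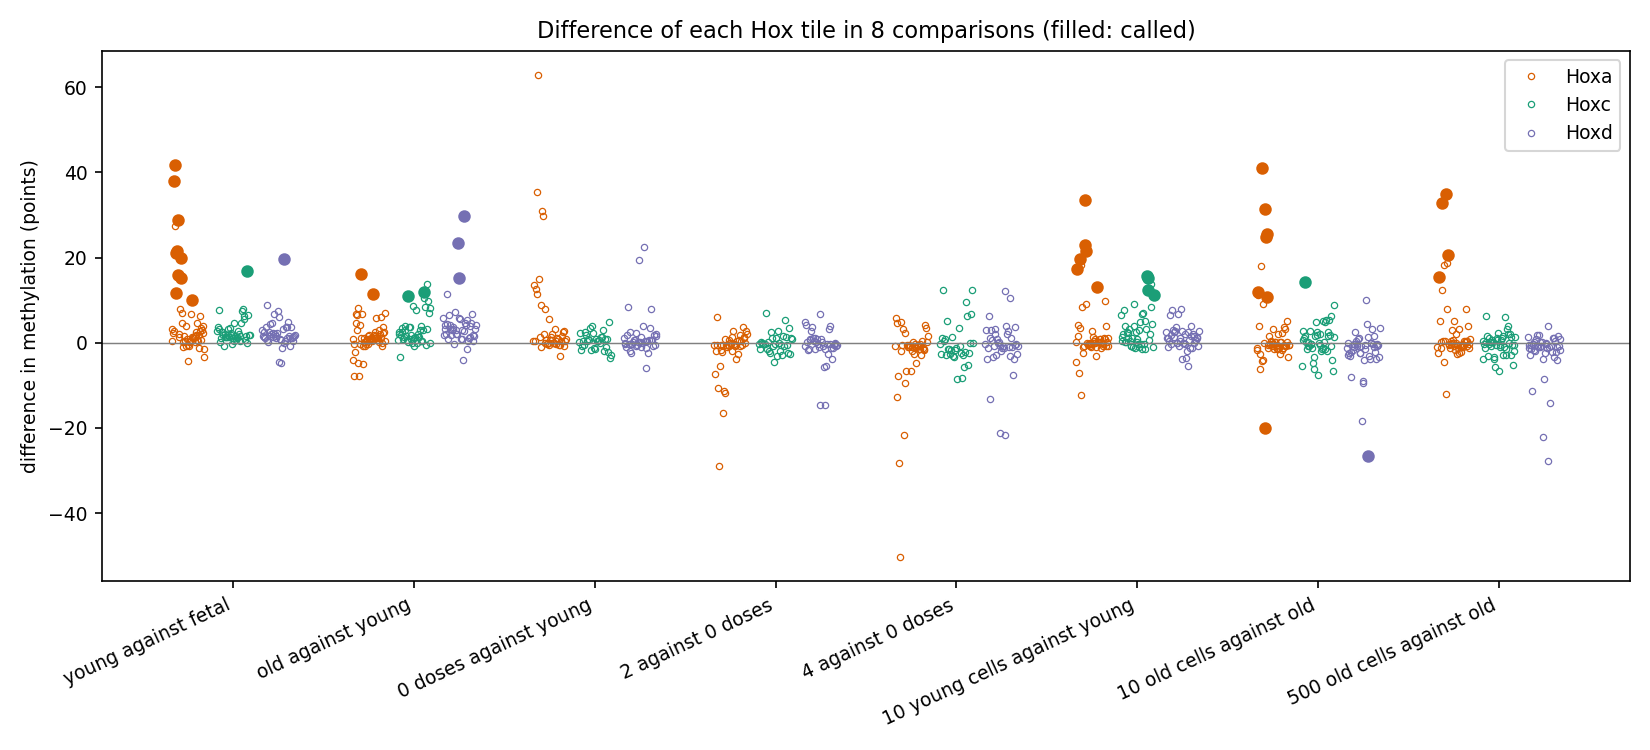
Difference in methylation (points) of each Hoxa, Hoxc and Hoxd tile in 8 comparisons; filled points are called tiles. The Hoxa differences reach furthest in most comparisons, and no tile is filled in the 3 comparisons with 5-FU groups.

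The mice aged 3.5 months plus 6 months without drug, set against young HSCs, gave the widest difference of any Hoxa tile but no call. Of 115 Hox tiles 0 rose and 0 fell, while 0.0524% of 57204 tiles rose and 0.00175% fell. An unadjusted p under 0.05 was found in 10 of the Hox tiles (8.70%), against 5.63% of all tiles. In the tile at the start of 5730596B20Rik, chr6:52127001-52128000, the young libraries read 23.2% and 7.21%, over 4 CpGs. Those without drug read 76.6%, 71.0% and 86.8%. The difference was 62.9 points ± 9.25, with no overlap, and its adjusted p was 0.0525. Each fit used the CpGs covered in all of its libraries, so this tile held 10 CpGs above and a different set of 4 here and after transplantation. Its levels thus cannot be set across the fits. The promoter CpGs of 5730596B20Rik covered in each group read 64.4% and 35.5% in young HSCs (4 CpGs). Without drug they read 60.9%, 95.7% and 23.1% (3 CpGs), so the groups overlapped there. Over the 5 CpGs of the Hoxa5 promoter covered in all young and 5-FU libraries, those without drug read 80%, 78.95% and 95.95%, above the 37.9% and 46.6% of the young ones, a difference of 42.7 points ± 7.03. Between the starts of Hoxa5 and Hoxa6 the level was 49.1%, against 30.7% in young HSCs. In Hoxc and Hoxd the largest differences were 4.79 and 22.5 points, at adjusted p of 1 and 0.777. A limma test called 1 Hox tile higher here, a fit of these 2 groups alone 3, and a fit of all 25 libraries 2.

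After 2 doses of 5-FU, against 0 doses, no Hox tile was called of 115. Over all tiles 0% rose and 0.00524% fell. After 4 doses no Hox tile was called either, with 0% and 0.00175% over all tiles. At an unadjusted p under 0.05 there were 4 and 13 Hox tiles (3.48% and 11.3%), against 4.65% and 8.14% of all tiles. The Hoxa window read 12.01%, 12% and 11.85% with 0 doses, 10.4%, 10.8% and 11% with 2 doses and 8.95% and 10.5% with 4 doses, so both dosed groups lay below the undosed one without overlap. The tile at the start of 5730596B20Rik read 42.5%, 44.1% and 61.3% with 2 doses (difference -28.9 points ± 7.61, adjusted p = 0.669). With 4 doses it read 35.7% and 20% (-50.3 ± 9.12, adjusted p = 0.38). Over the promoter CpGs of this gene covered in each group, libraries with 2 doses read 30.4%, 52.2% and 100% (3 CpGs). Those with 4 doses read 60% and 100% (1 CpG), and both groups overlapped the undosed one there. The same 5 CpGs of the Hoxa5 promoter read 47.5%, 70.6% and 66.7% with 2 doses and 35.6% and 78.5% with 4 doses. All lay below the undosed libraries, the second with 4 doses by less than 1 point. The 2 comparisons share the undosed libraries, whose level of unmethylated DNA was 0.515 and 0.545 points above that of the dosed groups. Hoxc and Hoxd differed by 0.144 points or less between the group means, with overlapping libraries. At this number of libraries a missing call does not show that the doses left the clusters alike. In simulated reads of the same fit, 18 of 100 changes of 30 points between young and 0 doses were called.

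After transplantation the genome as a whole lost methylation while parts of Hoxa and Hoxc rose. With 10 young cells, against young HSCs, 10 of 143 Hox tiles rose (6 in Hoxa and 4 in Hoxc) and 0 fell; of all 90382 tiles 1.10% rose and 17.1% fell. The median difference was 0.921 points over the Hox tiles and -4.43 over all tiles. Every library from 10 young cells lay above both young ones in 39 Hox tiles (27.3%), against 5.83% of all tiles, and below both in 7 Hox tiles (4.89%), against 54.0%. Among tiles under 20% in old HSCs the share was 26.4% of 121 Hox tiles and 10.1% of all 26356. Of those 121 Hox tiles 4 rose and 0 fell, and of all 26356 such tiles 283 rose and 65 fell. Called gains thus outnumbered called losses in lowly methylated tiles of the genome too.

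The tiles around Hoxa5 and Hoxa6 led the gains with 10 young cells. At chr6:52153001-52154000 the young libraries read 25.7% and 29.3% and the transplanted 65.5%, 57.0% and 60.8% (33.6 points ± 3.03, adjusted p = 0.00205). At the Hoxa5 start, chr6:52154001-52155000, they read 23.2% and 32.4%, and 50.9%, 57.3% and 43.7% (22.8 points ± 6.07, adjusted p = 0.0229). Upstream of Hoxa6, at chr6:52159001-52160000, they read 14.8% and 17.5%, and 23.7%, 45.9% and 43.4% (21.5 points ± 7.13, adjusted p = 0.00726). All 3 tiles separated the groups, as their naming required. Without transplantation, the tiles at and downstream of the Hoxa5 start were also higher in mice without drug at the later age. Over partly different CpGs, those libraries lay above both young ones by 29.8 points ± 2.58 and 30.9 points ± 2.03. Neither tile was called (adjusted p = 0.113 and 0.259), and in the tile upstream of Hoxa6 these groups overlapped. The promoter CpGs of Hoxa6 itself stayed between 0.399% and 2.67% after 10 young cells.

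In Hoxc the 3 neighbouring tiles from chr15:102840001-102841000 to chr15:102842001-102843000, of which the middle one rose with age, rose with 10 young cells. They read 5.91% and 13.5% in young HSCs against 28.4%, 26.1% and 21.6% (15.7 points ± 4.30, adjusted p = 0.00839), then 10.7% and 10.97% against 29.9%, 23.3% and 16.3% (12.3 ± 3.92, adjusted p = 0.0245), then 5.63% and 7.24% against 26.6%, 21.1% and 17.5% (15.3 ± 2.76, adjusted p = 0.00617). In Hoxd no tile was called, and the smallest adjusted p was 0.0517. These calls share the 2 young libraries with the comparison by age and rest on them: without the first young library 3 Hox tiles were called, without the second 0, and in a fit of these 2 groups alone 0. With the library shift to a common mean at 32 CpG-rich tiles, 2 Hox tiles rose and 4 fell, and the tile-mean differences were -1.17 points in Hoxa, -0.235 in Hoxc and -2.78 in Hoxd.

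With 10 old cells, against old HSCs, 7 of 143 Hox tiles rose (6 in Hoxa and 1 in Hoxc) and 2 fell (1 in Hoxa and 1 in Hoxd); of all tiles 0.569% rose and 22.8% fell. Every library from 10 old cells lay above both old ones in 25 Hox tiles (17.5%), against 4.17% of all tiles, and below both in 38 Hox tiles (26.6%), against 73.2%. The mean was higher in 60 of the 143 Hox tiles (42.0%), against 10.75% of all tiles. The median difference was -0.481 points, against -6.41 over all tiles. Among tiles under 20% in young HSCs every library lay above in 15.6% of 128 Hox tiles and in 8.55% of all 27386. Of those 128 Hox tiles 4 rose and 0 fell, and of all 27386 such tiles 276 rose and 326 fell. The start of 5730596B20Rik went from 47.1% and 39.5% in old HSCs to 77.7% and 90.9% (40.99 points ± 7.64, adjusted p = 0.00836). The tile downstream of the Hoxa5 start went from 28.3% and 29.1% to 58.6% and 61.9% (31.5 points ± 1.70, adjusted p = 0.00482), and that upstream of Hoxa6 from 9.89% and 12.5% to 33.3% and 40.1% (25.5 points ± 3.64, adjusted p = 0.00502). The Hoxa5 start-site tile rose by 24.7 points ± 5.35 (adjusted p = 0.024) and the Hoxa6 start-site tile by 10.7 points ± 2.76 (adjusted p = 0.0273).

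The 2 tiles that fell with 10 old cells were among those that rose with age, and share the old libraries with that comparison. At chr6:52150001-52151000 the level went from 89.7% and 89.9% in old HSCs to 75.6% and 63.8% (-20.1 points ± 5.90, adjusted p = 0.0466). At chr2:74563001-74564000, downstream of Hoxd4, it went from 87.9% and 78.3% to 54.8% and 58.0% (-26.7 points ± 5.05, adjusted p = 0.037). The Hoxc tile that rose, chr15:102764001-102765000, went from 12.3% and 11.5% to 24.02% and 28.1% (14.2 points ± 2.06, adjusted p = 0.0454). Without the first old library 0 Hox tiles were called, without the second 2, and without either transplanted library 3 or 4.

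With 500 old cells 4 of 143 Hox tiles rose, all in Hoxa, and 0 fell, while 0.377% of all tiles rose and 7.90% fell. Of these, 3 have been named: the tile downstream of the Hoxa5 start read 63.6%, 77.4% and 49.8% (34.9 points ± 7.98, adjusted p = 0.00276), the start of 5730596B20Rik 75.8%, 81.7% and 70.7% (32.8 ± 4.96, adjusted p = 0.0145), and the tile upstream of Hoxa6 34.5%, 34.8% and 26.0% (20.6 ± 3.17, adjusted p = 0.0114). All transplanted libraries lay above both old ones in these tiles, as their naming required. Among tiles under 20% in young HSCs 2 of 128 Hox tiles rose and 0 fell, while 144 of all 27386 rose and 295 fell. The comparison shares the old libraries with that of 10 old cells, and without either of them 0 tiles were called. Without the first library from 500 old cells 1 was called.

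The groups of 1 library gave the following levels in the tile downstream of the Hoxa5 start, over the 11 CpGs covered in all 25 libraries: 71.9% from 50 young cells, 27.0% from 500 young cells and 74.3% from 50 old cells. The young and old groups averaged 28.7% and 28.4% there. The library from 500 young cells was thus close to the young and old groups, and without replicates its difference from the other transplanted groups was not tested. Mice without drug at the later age, also not transplanted, read 58.95%, 60.7% and 59.1% there.

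Whether the change with 10 old cells differed from that with 10 young cells was tested as an interaction over the same tiles. No Hox tile was called of 143, against 0% of all tiles higher and 0.00221% lower. At an unadjusted p under 0.05 there were 11 Hox tiles (7.69%), against 5.21% of all tiles. The largest named difference was -26.2 points ± 13.1 at chr2:74537001-74538000, downstream of Hoxd9 (adjusted p = 0.876), where the change was -18.3 points with old and 7.89 points with young cells.

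Set beside the other Hox cluster, Hoxb (chr11:96040001-96240000), the 3 clusters shared the order of fetal, young and old HSCs and differed in level. Fetal HSCs read 7.09% ± 0.196 in Hoxb, young HSCs 12.4% ± 0.612 and old HSCs 16.6% ± 0.645. Of its 52 tiles 9 rose and 1 fell from fetal to young, where 2.04% of all tiles rose and 4.03% fell. From young to old 9 rose and 0 fell, against 3.66% and 0.233% of all tiles. With 10 old cells 0 Hoxb tiles rose and 6 fell, where 0.569% of all tiles rose and 22.8% fell. With 10 young cells 1 rose and 0 fell, against 1.10% and 17.1% of all tiles. These counts were not tested against those of Hoxa, Hoxc and Hoxd.

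Genes that act with or on the Hox clusters gave no call. Of 17 listed, 6 could be placed: Meis1, Meis2, Meis3 and Pbx2, whose proteins bind DNA together with Hox factors, Kmt2a, and Suz12, a subunit of Polycomb complex 2. Their start-site tiles were called in 0 of the comparisons in which they were tested. Those of Meis1 and Meis2 were not tested in the comparisons with 5-FU groups. The differences ranged from 0.590 to 0.954 points between fetal and young and from -0.277 to 2.41 points between young and old HSCs. A wider one was found at Meis1 with 10 old cells, 6.30 points over 3 CpGs (adjusted p = 0.0842). Fetal, young and old HSCs read 0.325%, 0.944% and 1.02% at the Kmt2a promoter, close to the level of unmethylated DNA in the same groups.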

How the data were processed

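The 25 RRBS libraries were deposited by the authors as a CpG list each, with position, strand, a score and a pair of numbers (methylated and total reads). As deposited, the score equals the methylated share scaled up and rounded down, and it was not tested. The submitters' processing notes name mm9 as the build. Aligner, caller, filters and duplicate handling: not given in the sources used here. Reads carry no molecular identifiers that the files show, so counting error is a lower limit.

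Only CpGs that had 5 reads or more in all libraries of a fit were used. They were summed in tiles of 1000 bases, and autosomal tiles holding 3 or more of them were tested. A logistic quasi-binomial fit with group means was made, using Williams' weights to allow for shared variation of reads inside a library. The dispersion was moderated along a depth trend with limma 3.58.1 (R 4.3.3) and never allowed below 1. F tests gave the p-values, adjusted after Benjamini and Hochberg over all tiles. The fits were of fetal, young and old (6 libraries, 100896 tiles), of young with the 5-FU groups (10 libraries, 57204 tiles) and of untransplanted young and old with all transplants (15 libraries, 90382 tiles); groups of 1 library limit the CpGs in the last but add nothing to its error. Differences are of group means of the library percentages, with SE from the library SDs. Levels of windows, stretches and promoters are described, not tested. The code was tested on simulated reads, with 100 tiles changed by 15 points and 100 by 30 points. Between young and old, 45 and 97 of them were called, and between young and 10 young cells 38 and 96. Between young and 0 doses of 5-FU 0 and 18 were called. Python 3.11.15, numpy 2.4.6, scipy 1.17.1 and pandas 2.3.3 were used.

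Start sites were placed by matching CpG spacing without mismatch at 1 best position, with at least 4 matched CpGs in a window and 5 on a whole chromosome for the partner genes. No mm9 annotation was used, so exons, introns and UTRs are not given. Named tiles are, per comparison and cluster, up to 3 largest gains and 3 largest losses among called tiles whose groups did not overlap, or the largest difference where none was called; other tiles and single CpGs were named after their values were seen. The clusters, gene lists and comparisons were chosen with earlier results of these data known. Alternatives changed 1 choice at a time: at least 10 reads per CpG, CpGs over 500 reads left out, a difference of 20 points or none, a limma test on percentages, other sets of libraries in the fit, a library offset, the replicate number as a block, and each replicate left out. The minimum difference of none, the unmethylated level taken off and the offset on cluster levels, made on the mean of tiles, were added after seeing the data.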

Additional observations from a re-analysis of the deposited data

Results flagged for a closer look

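In Hoxd, the libraries from 10 old cells lay below both old libraries while those from 10 young cells lay above both young ones. The cluster level changed by -1.66 points with old and 1.43 points with young cells, which gives a difference of -3.09 points. The stretch from Hoxd12 to Hoxd11 changed by -1.68 and 2.53 points (difference -4.21), and that from Hoxd9 to Hoxd3 by -2.41 and 1.22 points (difference -3.63). These differences of levels were not tested, and no Hoxd tile was called for the same difference in the fit over all tiles. The level of unmethylated DNA changed by -1.01 points with old and -0.555 points with young cells. Averaged over tiles, the Hoxd level changed by -2.81 points with old and 0.927 points with young cells, and with library offsets then removed by -2.91 and -2.78 points.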

How the results depend on the processing

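The counts of called Hox tiles changed with the setting. Only the 39 named tile results, which are among the largest differences, were followed one by one. Of 524 re-runs of them, 392 kept direction and side of the threshold, 130 kept direction without passing it, 2 passed newly and 0 reversed. The 392 include re-runs of named tiles that were not called at first and stayed so. All 130 were re-runs of called tiles, so the 392 overstate how often a call was kept.

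Counts that moved by more than 1.5 times were these. Between fetal and young HSCs (12 called), 5 tiles were called at a difference of at least 20 points, 5 with limma, 1 in a fit of all 25 libraries and 7 to 10 with each replicate left out. Between young and old (7 called), the counts were 2 at 20 points, 1 with limma, 0 with the library offset removed, 0 in the fit of all 25 libraries and 0 to 4 with each replicate left out. Between young and 0 doses of 5-FU (0 called), limma called 1, the fit of all 25 libraries 2 and a fit of the compared groups alone 3. For 10 young cells (10 called), the counts were 3 at 20 points, 6 with limma, 6 with the offset removed, 3 in the fit of all 25 libraries, 0 with the compared groups alone and 0 to 14 with each replicate left out. For 10 old cells (9 called), limma called 5, the fit of all 25 libraries 2, and 0 to 4 were called with each replicate left out. For 500 old cells (4 called), 7 were called with the offset removed, 1 in the fit of all 25 libraries and 0 to 6 with each replicate left out. Fewer tiles enter the fit of all 25 libraries; the cause of the other changes was not tested. The 2 comparisons of 5-FU doses and the test of old against young transplants gave 0 in every setting.

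Replicate numbers did not pair the libraries: deviations of same-numbered libraries correlated between -0.0766 and 0.0453. With the replicate number as a block, 1 Hox tile was called between young and old and 8 between fetal and young, while 10 young cells, 10 old cells and 500 old cells gave 9, 8 and 6.

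Cluster levels depended on how CpGs were averaged. With summed reads, the step from fetal to young was 1.79 points in Hoxa and 1.72 in Hoxd, and that from young to old 2.68 in Hoxa, 3.30 in Hoxc and 4.31 in Hoxd. With at least 10 reads per CpG, the latter was 3.48 in Hoxd. As a mean of tiles, Hoxd had 2.48 from fetal to young, 4.90 from young to old, 0.927 with 10 young cells and -2.81 with 10 old cells, Hoxc had 3.42 from young to old, and Hoxa had 3.40 with 10 young cells. Without the unmethylated level, chosen after seeing the data, Hoxc had 2.24 and Hoxd 1.60 from fetal to young, Hoxc 3.32 and Hoxd 3.50 from young to old, Hoxd 1.98 with 10 young and -0.651 with 10 old cells, and Hoxa 2.30 with 10 old cells. With library offsets removed from the mean of tiles, also chosen after seeing the data, Hoxa had 5.89 and Hoxd 2.62 from fetal to young. From young to old, Hoxa then reversed to -1.72 (1.75 as a mean of tiles) and Hoxc and Hoxd had 0.474 and 1.03. With 10 young cells all 3 reversed, to -1.17 in Hoxa, -0.235 in Hoxc and -2.78 in Hoxd, and Hoxd had -2.91 with 10 old cells. The offset assumes that CpG-rich tiles of intermediate level are equal in all libraries, which was not tested. Groups of 2 and 3 libraries and tiles of 3 to 5 CpGs limit every count here.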
